A study of Drosophila melanogaster with 33 samples.

Results

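Of the 395 gene entries in the deposited list of RNA editing sites from fly heads, 208 have exactly 1 listed site. These entries were chosen by counting how often each gene identifier occurs in the list, without use of any editing level. They make up 52.7% of the entries but hold only 15.4% of the 1350 sites, since the other 187 entries hold 1142 sites. The 70 entries with exactly 2 sites, 140 sites in all, lie just outside the rule.

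All samples were heads of Drosophila melanogaster aged 3 to 4 days and kept in cycles of 12 hours of light and 12 of darkness. Nascent RNA, which is RNA still being transcribed and bound to chromatin, came from the yellow white (yw) strain in 2 replicate sets of 6 libraries each, depleted of polyadenylated RNA and, in set 1, also of ribosomal RNA. Polyadenylated mRNA came from 2 libraries of yw and 12 of Canton S (Cs). Nascent RNA of males came from 2 libraries each of yw, of FM7a, named for a balancer of the X chromosome, and of ADAR0, flies with a null allele of the editing enzyme gene Adar. The FM7a males are a control of another genetic background than yw. Genomic DNA of yw, 1 library, gave the coverage of each site.

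Each editing level is the percent of reads with the edited base, and the authors pooled the libraries of a group before taking it. Each mRNA and male level is therefore 1 value with no replicate error, and the 2 nascent sets give the only spread between replicates. The RNA read depth behind a level is unknown, so a 0 is a listed value and not proof of no editing. No test between groups is given, because no level of a single library was available. Intervals on shares of sites are exact 95% binomial intervals that cover counting error only. The listed genes include photoreceptor and neuronal genes of the head, and expression of tissue markers was not measured here.

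ADAR enzymes deaminate adenosine to inosine in double-stranded RNA, and the ribosome and reverse transcriptase read inosine as guanosine. The double strand often forms between an exon and a neighbouring intron, so editing can take place while the intron is still attached. In flies the single Adar gene acts mainly in the nervous system, and ion channel and synaptic transcripts are its best known targets. One enzyme can edit many adenosines in a long duplex, or a single adenosine in a short imperfect one.

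A count of identifiers is not quite a count of genes. For 7 of the 208 members, current gene names join the site to another entry, which leaves 201 genes with 1 listed site. The cyclic nucleotide-gated channel-like gene cngl, for example, appears under a second identifier with 6 sites at 8% to 17%, 44353 bases away from the member at 80%. The members 4EHP, a cap-binding protein, at 11%, and the joined entry CG31136/CG33100, which contains the syntaxin gene Syx1A, at 24%, both include eIF4EHP. The members Dscam2, at 46%, and CG17742, at 17%, are now both assigned to Dscam2, an immunoglobulin cell adhesion receptor, and lie 18258 bases apart. The remaining 2 are CG41087 (lovit) at 10% and CG42732 at 22%, an identifier now joined with the potassium channel gene SLO2.

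The single sites lay in exons more often than the rest. Exons held 128 of the 208 sites, or 61.5% (interval 54.6% to 68.2%), against 43.2% (40.3% to 46.1%) of the 1142 sites in entries with several sites. The share was 52.1% in entries with 2 sites, 55.6% with 3 to 5 and 38% with 6 or more. Sites of 1 entry share a gene and are not independent, and gene length and expression, which bear on how many sites can be found, were not taken into account. Genomic coverage had a median of 39 reads (15 to 108) at single sites and 45 at the others, and 32 against 41 in exons. Its part in these shares was not tested.

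Single sites had few other listed sites near them along the chromosomes. None of the 208 had another listed site of any gene within 1000 bases, whereas 79.2% of the sites in other entries did. The median distance to the nearest listed site was 95730 bases for single sites and 39 bases for the others. This gap follows largely from the rule itself, which leaves out any site with another listed in its own entry. Within 10000 bases only 5 members had a neighbour. These were the 4EHP pair, 7590 bases apart, the neighbours CG31729 and CG16970, 9933 bases apart, and CG32767, 9764 bases from a site of rg, an entry with 3 sites. The X chromosome held 12.5% of the single-site entries and 19.3% of the other entries, and chromosome 4 held 1.92% and 5.88%.

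The nascent level was the same at the median in both classes. It was 21% at the 208 single sites (quartiles 13% and 37%, range 5% to 80%) and 21% at the 1142 others (12% and 38%, 4% to 95%). In set 1 the medians were 22% in both, and in set 2 they were 21.5% and 20%. Exonic single sites had a median of 24.5% against 28% for other exonic sites, and intronic ones 18.5% against 18%. By set, the exonic medians were 24.5% and 25% at single sites and 29% and 27% at the others, and the intronic medians were 19% and 17% in both classes, so the exonic gap had the same direction in both sets and varied in size from one to the other. High levels were somewhat less frequent, with 50% or more at 22 single sites (10.6%) against 179 others (15.7%). Among the others this share was 9.29% in entries with exactly 2 sites, 16% with 3 to 5 and 16.7% with 6 or more. A low share of high levels was thus not particular to single sites. The highest level in an entry had a median of 21% with 1 site, 29% with 2, 45% with 3 to 5 and 65% with 6 or more, but an entry with more sites has more chances of a high value.

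**Figure D1:**
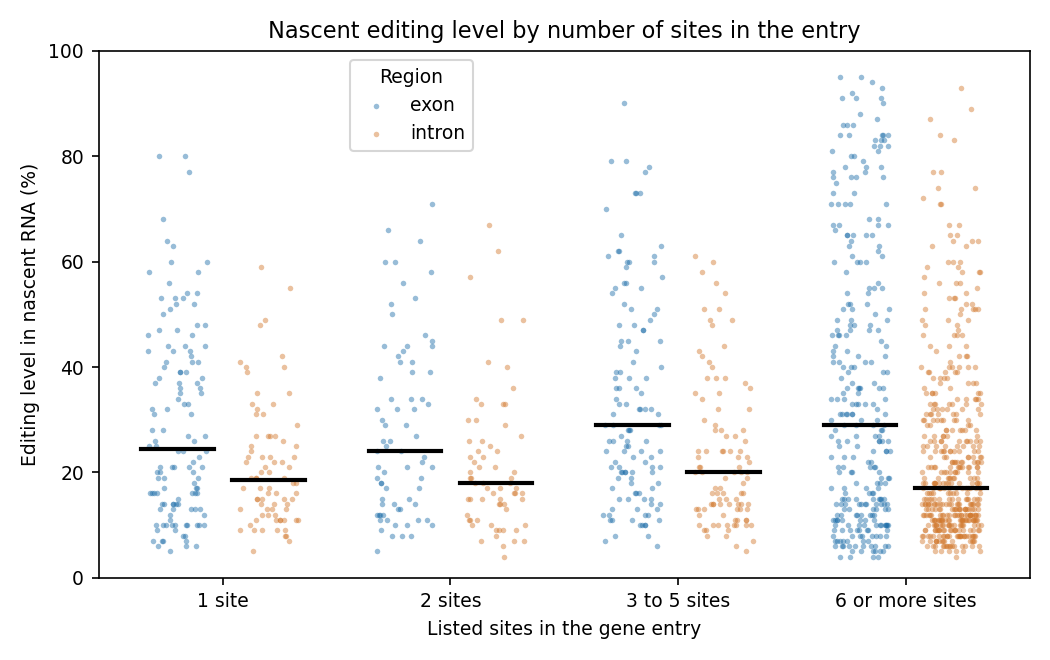
Pooled nascent editing level (percent, y axis) of every listed site by the number of sites in its gene entry (x axis), with exonic and intronic sites in separate colours and bars at the medians. The exonic medians lie above the intronic ones in each class, and the 1-site class spans 5% to 80%.

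The highest single sites were exonic with 1 exception. The cngl site, on chromosome X at position 15286718 of build dm3 (positions are as deposited), had 78% in set 1 and 83% in set 2. The site in lap, which encodes the clathrin adaptor AP180 of synaptic vesicle retrieval (3R, 3018497), had 83% and 78%. Unc-89, the giant muscle protein obscurin (2R, 19894078), had 77% in both sets. The values of these 3 sites differ by no more than the spread between sets. Next came alpha-Adaptin, a subunit of the AP-2 clathrin adaptor (2L, 411895), with 70% and 67%, and CG13506 with 55% and 71%. The secreted eye-patterning protein gene sca had 67% and 60%, the vesicular monoamine transporter gene Vmat 57% and 65%, and the muscarinic acetylcholine receptor gene mAcR-60C 53% and 62%. The intronic exception lay in Parp, encoding a poly(ADP-ribose) polymerase, in the heterochromatic sequence 3RHet, with 47% and 71%. The calpain protease gene CalpB had 52% and 61%, and Nelf-A, a subunit of a complex that pauses transcription, had 67% and 52%, which gave both a pooled level of 58%.

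The lowest pooled levels were 5% at the photoreceptor channel gene trp, with 7% and 4% in the sets, and 5% at an intron of CG7971, with 5% and 4%. Gp150, a leucine-rich-repeat membrane protein of the eye, the proton pump subunit gene Vha26 and the potassium-chloride cotransporter gene kcc each had 6%. In ADAR0 males kcc was listed at 6%, against 2% in yw and 5% in FM7a males. The trp site was at 3% in ADAR0, against 3% in yw and 7% in FM7a males. The sites in CG7971, Gp150 and Vha26 were at 0 in ADAR0, and Gp150 also in both control males. Over the 12 nascent libraries, the 5th percentile was 72% at cngl, 63% at lap and 53% at Unc-89. Its median was 7% at single sites and 8% at others, and it was 0 at 13% and 6.74% of them. In entries with exactly 2 sites it was 0 at 12.9% of sites, close to the share at single sites.

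Replicate sets agreed less closely at single sites. The SD of a level between the sets was 5.65 points against 4.39 points at the other sites, with 4.97 points in entries with 2 sites, 5.00 with 3 to 5 and 4.08 with 6 or more. Sets differed by more than 10 points at 39 members (18.8%), against 11% of all sites. Across sites, which are not independent replicates, Pearson's r between the sets was 0.888 for the 208 and 0.959 for the others. RNA depth at these sites is unknown and its part was not tested.

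The largest set difference was at CG40228, in the heterochromatic sequence 3LHet, with 40% in set 1 and 67% in set 2. The Parp intron followed, then CG3638 with 5% and 26%, the mitochondrial transport adaptor gene milt with 40% and 60%, and CG32699 with 59% and 40%. Of these, 4 were higher in set 2 and CG32699 was higher in set 1. An intron of CG3967, with 43% and 24%, tied with CG32699 for the fifth place. In yw, FM7a and ADAR0 males CG3638 had 4%, 5% and 6%, and CG3967 had 0%, 14% and 5%. CG40228, milt and CG32699 were listed at 0 in ADAR0, and Parp had no male level. Set 1 was the higher at 108 members (51.9%) and set 2 at 80 (38.5%), against 57.1% and 34% of all 1350 sites.

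**Figure D2:**
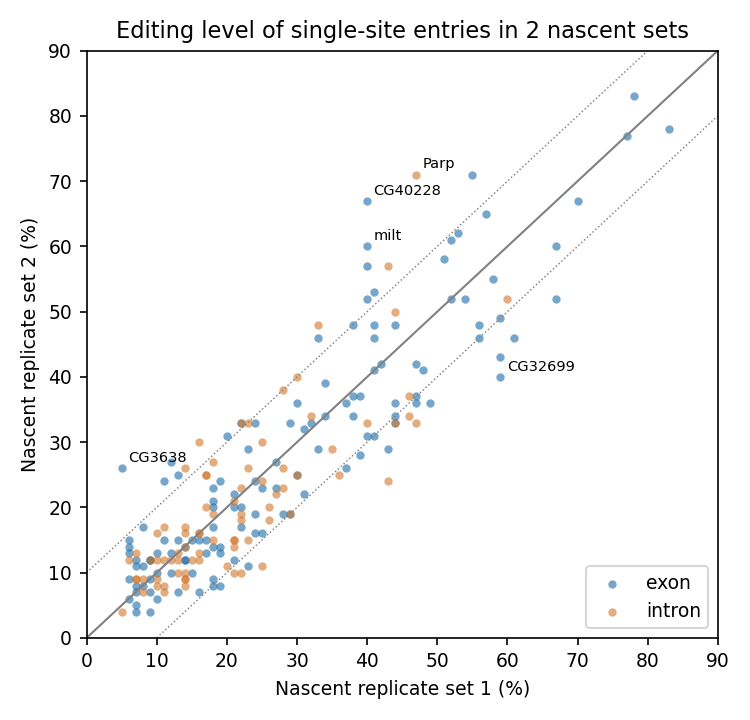
Editing level (percent) of the 208 single sites in nascent set 1 (x axis) and set 2 (y axis), 1 point per site, with the line of equality and the 5 largest differences named. Points scatter about the line with an SD of 5.65 points per level.

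The genes with a single site were spread over many roles, and 64 of the 208 fell in at least 1 of 16 lists of genes by function. Among edited entries, 4 of 24 in the list of voltage-gated ion channels and 1 of 11 ligand-gated receptors had only 1 site. The same held for 5 of 6 muscle genes, 4 of 4 genes of ubiquitination and proteolysis and 3 of 3 of membrane traffic, while the clock list had 0 of 1. Over all entries the share was 52.7%. The lists are partial, so counts and medians by list cover the listed genes only. The splicing coactivator gene SRm160, the RNA helicase gene Rm62 and the histone methyltransferase gene Mes-4, for example, are in no list. With entries this few the lists are described and not ranked.

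The 4 members of the voltage-gated list were cngl at 80%, the chloride channel gene ClC-a at 23%, CG42732 at 22% and CG42260 at 19%. Their median was 22.5%, against 23% at the other sites of the list. Of these members, cngl and CG42732 are single by identifier only. Current names join cngl to an entry with 6 sites and CG42732 to one with 3. The nicotinic acetylcholine receptor subunit gene nAcRalpha-96Aa had 30% and 25% in the sets. The serotonin receptor gene 5-HT7 had 28% and 38%, below mAcR-60C in both sets. In phototransduction trp stood at 5% and Cpn, which encodes the photoreceptor calcium-binding protein calphotin, at 36%.

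Of synaptic release genes, 5 of 20 edited entries had 1 site. They were lap at 80%, Vmat at 60%, the calcium sensor gene Frq1 at 54%, the Syx1A entry at 24% and nwk, encoding an F-BAR protein of the presynaptic terminal, at 7%. Their median was 54% and that of the list's other sites 20%, with the 5 members reaching from 7% to 80%. All 5 members were exonic and 4 had a level in mRNA. The 110 other sites of the list were taken without regard to region, so the medians do not compare like sites. Ion pumps and transporters, also without regard to region, had a median of 10% at 5 entries against 23% at the other sites of that list. Nhe2, a sodium-proton exchanger, had 48%, its relative Nhe3 27% and the ABC transporter gene Atet 10%, above Vha26 and kcc. The median is thus the level of Atet, which was listed at 100% in both FM7a and ADAR0 males. In ADAR0 males kcc was at 6%, and the other 3 members were at 0.

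The muscle genes gave Unc-89 at 77%, bt, a titin-family kinase also called projectin, at 31%, the myosin heavy chain gene Mhc at 29%, the Z-disc gene Zasp52 at 25% and sls, the fly titin, at 10%. Membrane traffic gave alpha-Adaptin at 68%, CG42863 at 15% and an intron of sky, encoding a Rab GTPase-activating protein, at 12%. The proteolysis list held CalpB at 58%, the furin gene Fur1 at 17%, the ubiquitin ligase gene hiw at 16% and the metalloprotease gene kuz at 15%.

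Adar itself had 1 listed site, exonic, on chromosome X at position 1675873. Its level was 29% in set 1 and 19% in set 2, and among males it was 26% in yw, 25% in FM7a and 0% in ADAR0. Other members of the RNA-processing list were Atx2 (ataxin-2) and the RNA-binding protein gene msi at 41% each. An intron of the microRNA effector gene AGO1 had 33%, and the splicing regulator genes A2bp1 and B52 had 15% and 14%. The median of the 6 listed members, Adar included, was 28.5%, against 15.5% at the other sites of that list.

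Of kinases and phosphatases, 9 of 15 edited entries had 1 site, with a median of 22%. The diacylglycerol kinase gene Dgkepsilon and the MAP kinase gene rl had 40% each, and the lipid kinase gene PI4KIIIalpha had 38%. The lower members included the receptor tyrosine kinase genes Pvr at 22% and Alk at 12%, the AMPK gamma subunit gene SNF4Agamma at 19%, the phosphatase subunit gene wdb at 22% and CaMKI at 9%. CG31140 stood at 27%. Adhesion and cytoskeleton had 9 of 23 entries, led by the leucine-rich-repeat gene Lrch at 52%, Dscam2 at 46% and the beta-heavy spectrin gene kst at 39%. The netrin gene NetB stood at 19%, the teneurin gene Ten-a at 21%, RhoGAP18B at 16% and mask at 7%.

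Transcription and chromatin gave 10 of 16 entries with a median of 24%. The chromatin remodelling genes kis and dom had 44% and 39%. Of the ecdysone pathway, Eip74EF had 43%, Eip75B 27% and the receptor gene EcR 7%. The transcription factor genes zfh2 and pros had 27% and 21%, tna 21%, jim 17% and Atf6 13%. The remaining 144 members were in no list, and 76 of the 208 carried no gene symbol.

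**Figure D3:**
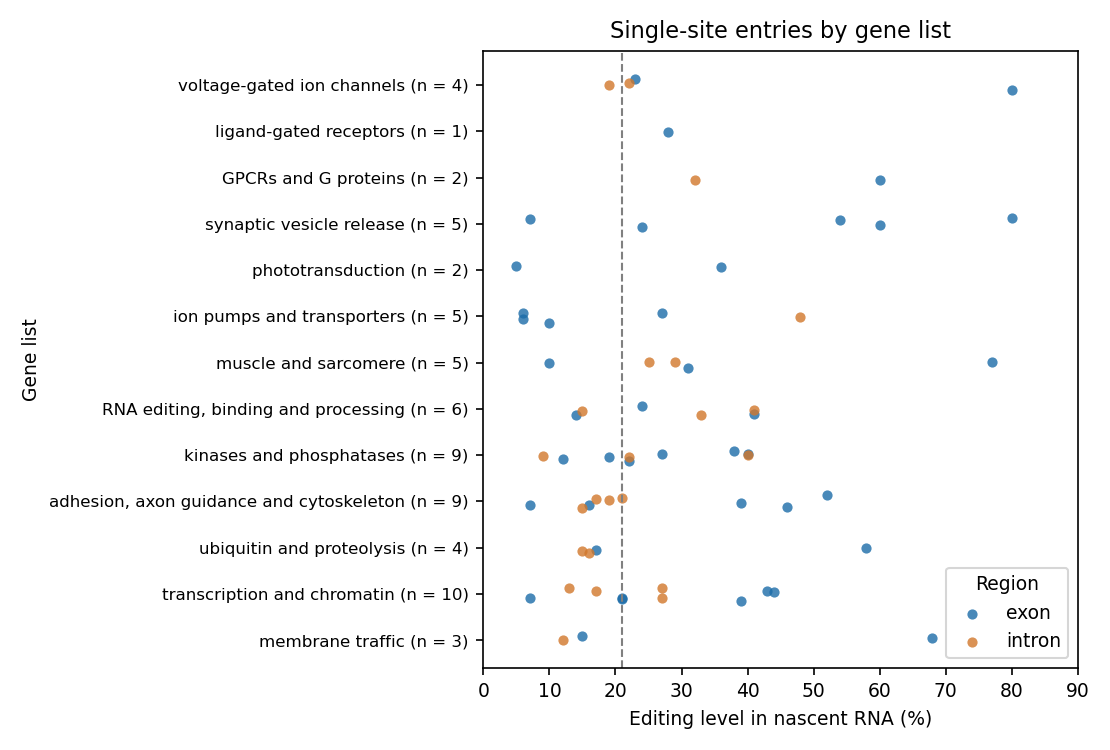
Pooled nascent level (percent, x axis) of the single-site members of each function list (y axis), 1 point per entry, spread vertically for sight only, with a dashed line at the median of all 208 members, 21%. Synaptic release members reach from 7% to 80%, and 3 of the 5 pumps and transporters lie below the line.

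Levels in mRNA were listed at 43 single sites, all exonic, which is 33.6% of the 128 exonic members (interval 25.5% to 42.5%) against 43.4% (39.0% to 47.9%) of other exonic sites. Why some sites carry a level in mRNA and others do not is unstated in the sources at hand. Sites with one had higher nascent levels, with medians of 41% at single sites and 49.5% at others, than exonic sites without one, at 17% and 15%. The median mRNA level was 52% in yw (13% to 95%) and 45% in Cs (3% to 88%).

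The mean of both mRNA pools exceeded the nascent level at 34 of the 43 members (79.1%) and lay below it at 9 (20.9%), against 72.4% and 25.3% of the 257 sites with mRNA levels. The share above was 80.8% in entries with 2 sites and 83.9% with 3 to 5. The median difference at the members was 8 points, with a range from -12.5 to 33.5 points, and 4.5 points at the other sites. It was 5.25 points in entries with 2 sites, 6.75 with 3 to 5 and 3 with 6 or more. The SD between mRNA pools was 13.8 points at single sites and 8.67 points at the others. By class of the others, this SD was 10.4 points with 2 sites, 8.64 with 3 to 5 and 8.29 with 6 or more. Taken alone, yw mRNA was higher than nascent RNA at 29 members (67.4%, against 68.9% of all sites with mRNA) and Cs mRNA at 27 (62.8%, against 61.9%). The median difference was 12 points with yw mRNA, the strain of the nascent RNA, and 5 points with Cs mRNA.

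Both mRNA pools exceeded both nascent sets at 14 members (32.6%, against 39.3% of all sites with mRNA). CG34357 had 30% and 36% in the nascent sets and 75% and 58% in yw and Cs mRNA. PI4KIIIalpha had 39% and 37% against 68% and 63%, and Lrch had 52% in both sets against 78% in both mRNA pools. The groups do not overlap at these 3 sites. For sca the nascent levels were 67% and 60% and both mRNA pools were at 88%. CG3711 had 43% and 29% against 58% and 63%, alpha-Adaptin 70% and 67% against 82% and 73%, and Frq1 61% and 46% against 77% and 65%.

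Both mRNA pools fell below both sets at 1 member (2.33%, against 8.95% of all), CG42671, with 41% in both sets and 38% and 36% in mRNA. The lowest mean difference was -12.5 points at CG9485, with 59% and 43% in the sets and 44% and 25% in mRNA, which overlap. At CG13506, with a mean difference of -9 points, the sets had 55% and 71% and mRNA 52% and 58%. Rm62, a DEAD-box RNA helicase, had 33% and 29% in the sets and 30% and 24% in mRNA. The kis site tied with CG42671 at -4 points, with 47% and 42% in the sets and 38% and 42% in mRNA. Other members had nearly equal levels in both kinds of RNA. For lap the mRNA levels were 81% and 80%, and for cngl 79% and 74%, each within 5 points of a nascent set.

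The mRNA pools lay on opposite sides of the nascent sets at 12 members, which is 27.9% (interval 15.3% to 43.7%), against 16.3% of all sites with mRNA. At SNF4Agamma the nascent sets had 22% and 17%, yw mRNA 70% and Cs mRNA 12%. At CG30127 they had 41% and 53%, with 95% in yw mRNA and 38% in Cs. NKAIN had 25% and 23% in the sets, 29% in yw mRNA and 3% in Cs. Vmat went the other way, with 46% in yw mRNA and 75% in Cs around nascent levels of 57% and 65%. The yw pool was the higher at 7 of the 12 and the Cs pool at 5. Strain, sampling times and number of libraries differ together between these pools and cannot be told apart.

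**Figure D4:**
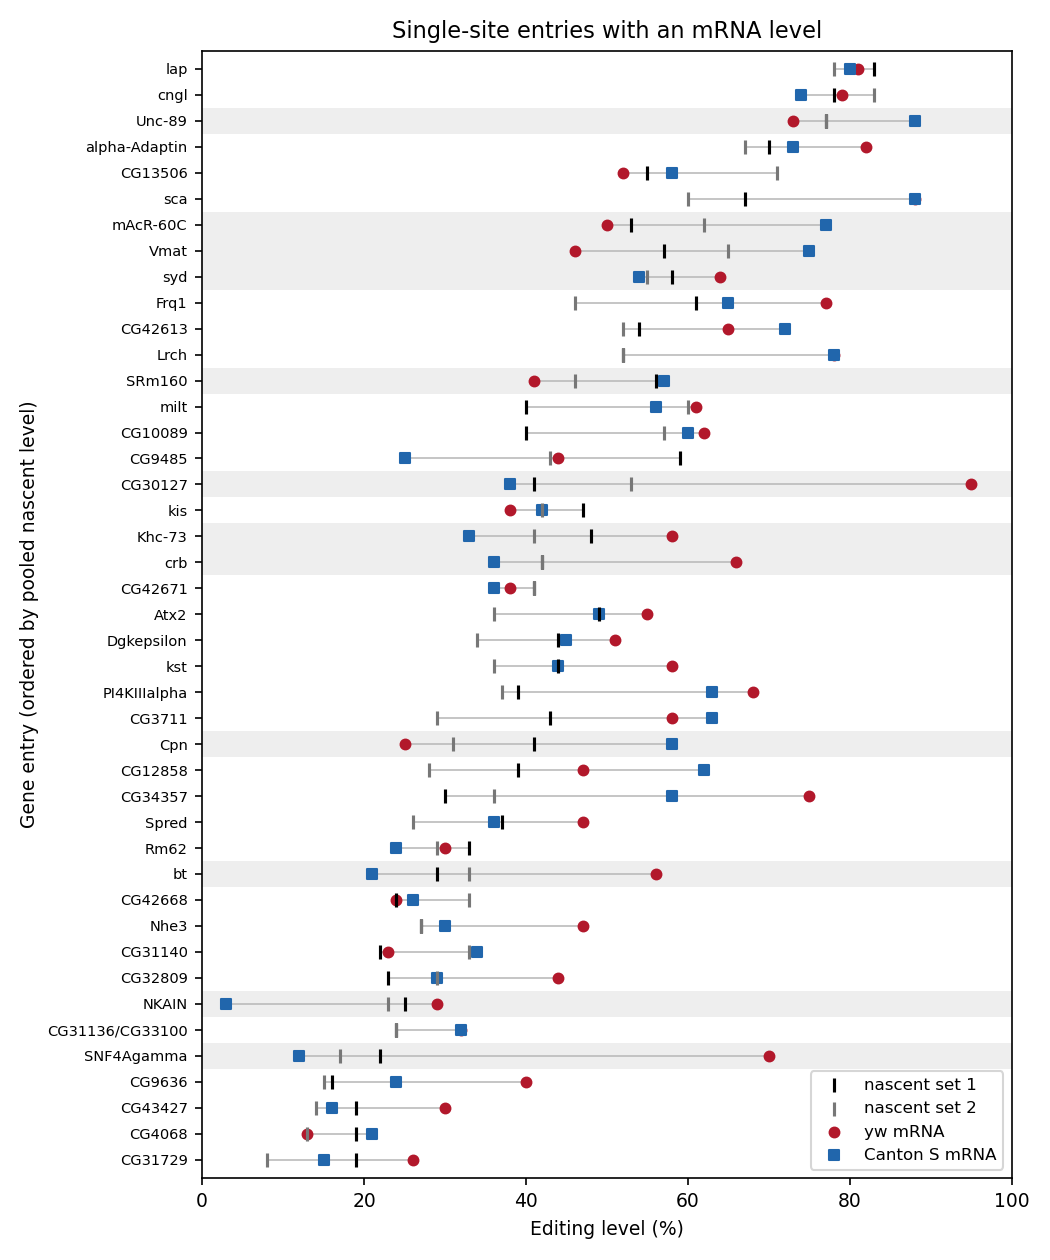
Editing level (percent, x axis) at the 43 single sites with mRNA levels (y axis, 1 gene per row), with the nascent sets as vertical ticks and the mRNA pools as circles (yw) and squares (Cs). Where the mRNA pools are equal, as at Lrch and sca, one symbol covers the other, and grey bands mark the 12 sites whose mRNA pools lie on opposite sides of the nascent sets.

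In control males the single sites had a median level of 15% in yw and 11% in FM7a, against 15% and 12% at other sites. Editing was seen in all 4 male control libraries, by the authors' own mark, at 82 members (39.4%, interval 32.7% to 46.4%), against 45.1% of all sites and 46.1% of the other sites. Among exonic members the share was 51.6% against 62.5%, and among intronic ones 20% against 33.7%. Both control males were listed at 0 for 21 members (10.2%), against 5.22% of other sites. Their nascent levels in yw ran from 6% to 55%, with a median of 14%. The highest was an intron of toc, at 60% and 52% in the nascent sets with a 5th percentile of 0, and Cpn, Pvr and Ten-a were also among them.

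The yw male level was above that of FM7a at 111 of 205 members (54.1%) and below at 70 (34.1%), against 57.9% and 31.9% of all sites. The median difference was 1 point, against 2 points over all sites, and it was 3 points without sites at 0 and 3.5 points at members seen in all 4 control male libraries. At 7 of the 9 highest nascent sites with male levels the strains were within 10 points of each other. Unc-89 had 77% and 79%, cngl 68% and 71%, mAcR-60C 72% and 69%, and alpha-Adaptin 76% and 83%. A few sites were far apart. An intron of sano was listed at 100% in yw males and 0% in FM7a, with 32% and 34% in the nascent sets, and CG31714 and CG40228 had 67% in yw against 9% and 13%. An intron of Eip75B had 50% and 8%, and the histone methyltransferase gene Mes-4 had 40% and 0%. In the other direction Vmat had 25% in yw and 91% in FM7a. None of the sites named here as far apart carried the authors' mark for editing in all 4 control male libraries. Each of their male levels is 1 pooled value with no replicate error.

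In ADAR0 males 172 of 206 single sites (83.5%, interval 77.7% to 88.3%) were listed at 0, against 88.1% of all sites and 88.9% of the other sites. The ADAR0 level was below that of FM7a at 150 of 204 members (73.5%, against 79.6% of all) and equal at 44. It was above FM7a at 10 members (4.90%, against 2.40% of all and 4.35% in entries with exactly 2 sites). Of the 10 highest nascent sites, 9 were at 0 in ADAR0 and the Parp intron had no male level.

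High levels without the enzyme were found at 5 single sites, 2.43% (interval 0.793% to 5.57%) of the members, against 0.597% of all sites. Those 5 make up most of the 8 listed sites at 50% or more in ADAR0. The site in Atet (2L, 4343232) had 10% in nascent yw RNA, 1% in yw males and 100% in both FM7a and ADAR0 males. CG15431 (2L, 4407782) had 9%, 4%, 100% and 100% in the same order, and the sky intron (2L, 20879847) 12%, 31%, 100% and 100%. An intron of dysc, a scaffold gene of the fly clock output (3L, 13875879), had 27%, 27%, 95% and 100%. CG33719/CG33720 (3R, 4608749) had 8%, 3%, 63% and 72%.

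At all 5 the FM7a and ADAR0 males were both high and the yw males were lower. Genomic DNA was listed for yw alone, so whether FM7a and ADAR0 genomes carry the edited base at these positions was not tested. The same pattern held at CG16791 and CG42784, which are 2 of the 3 sites at 50% or more in ADAR0 that belong to entries with several sites. Atet is the nearest listed neighbour of CG15431, at 64550 bases, and the sky site lies on the same arm.

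**Figure D5:**
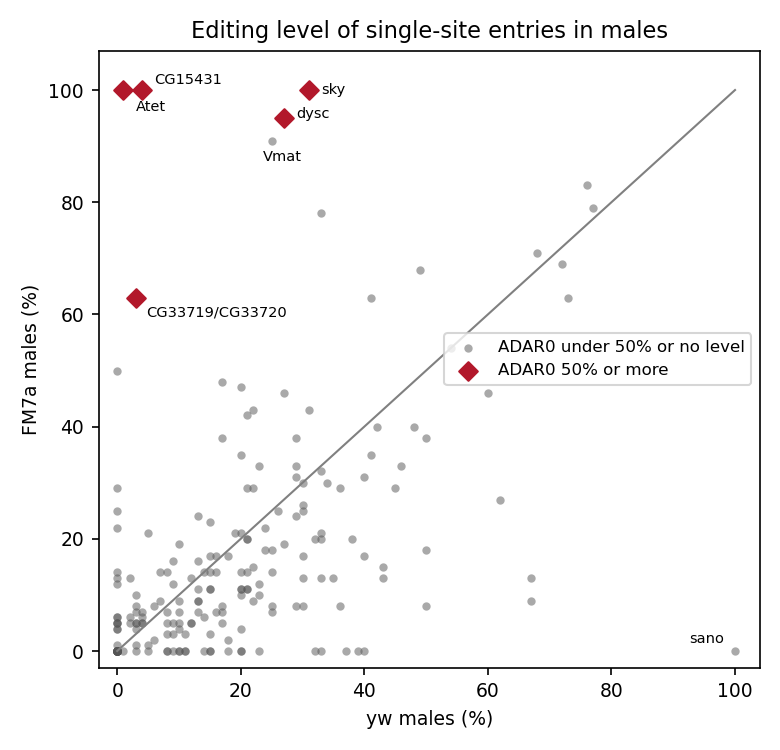
Editing level (percent) of single sites in yw males (x axis) and FM7a males (y axis), with the line of equality. Diamonds mark the 5 sites at 50% or more in ADAR0 males, which all lie above the line.

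The 140 sites of entries with exactly 2 sites had a median nascent level of 20% (4% to 71%), with 24% in exons and 18% in introns. Exons held 52.1% of them, between the 61.5% of single sites and the 43.2% of all other sites. A 5th percentile of 0, at 12.9%, and an ADAR0 level above FM7a, at 4.35%, were about as frequent as at single sites. Other shares lay outside both classes. The authors' mark for all 4 control male libraries was present at 50% of the sites of these entries, and at 69.9% of the exonic ones. Set 1 exceeded set 2 at 68.6% of them, and yw mRNA exceeded nascent RNA at 22 of 26.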

How the data were processed

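Per the file headers, the authors deposited 1 editing level per site and group as a fraction, pooled over the libraries of the group and rounded to hundredths, and the fractions were multiplied by 100 here. Genomic coverage is a deposited read count. Per the submitters' processing notes TopHat and CASAVA 1.6 and 1.8 were used with build dm3. The method of calling sites is unstated in the sources at hand, as is whether positions count from 0 or 1.

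Sites were grouped by how often their gene identifier occurs, with no filter on level. Current symbols came from the RefSeq Release 6 gene table, which matched 394 of 399 identifiers. The mRNA level is the unweighted mean of both pools. The SD of a level is the root mean square difference of the nascent sets divided by the square root of 2. Intervals are exact Clopper-Pearson (scipy 1.17.1, pandas 2.3.3).

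The members and lists were chosen with earlier results of these data known. After the values had been seen, CG34362 and CG42540 were taken out of the voltage-gated list because their role was uncertain, and 1 list was renamed. The lists for clock, glia and fat body genes held no single-site entry. Genes were named by rule: the 10 highest and 5 lowest nascent levels, the 5 largest differences between sets, between mRNA and nascent RNA and between yw and FM7a males in each direction, the 5 highest ADAR0 levels, all members of a list, and Adar. Ties went by name, and tied entries are also given. The toc intron, the sites whose mRNA pools lie on opposite sides, entries joined by current names, close neighbours, and the members with all mRNA levels above all nascent levels that the rule does not name were chosen after their values were seen. Alternatives were other site selections, single sets and single mRNA pools.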

Additional observations from a re-analysis of the deposited data

Results flagged for a closer look

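At 12 of the 43 single sites with mRNA levels, 1 mRNA pool was above both nascent sets and the other was below both. That is 27.9% (interval 15.3% to 43.7%), against 16.3% of all sites with mRNA. The difference between the pools was not tested, since each is 1 value pooled over libraries. Yw mRNA was the higher pool at 7 sites. The yw minus Cs difference was 58 points at SNF4Agamma, 57 points at CG30127, 35 points at bt, 30 points at crb, a polarity gene, and 26 points at NKAIN. It was 25 points at the kinesin gene Khc-73 and 10 points at syd, a kinesin adaptor. Cs mRNA was the higher pool at 5 sites. There the yw minus Cs difference was -33 points at Cpn, -29 points at Vmat, -27 points at mAcR-60C, -16 points at the splicing coactivator gene SRm160 and -15 points at Unc-89. Some sites met the rule by a narrow margin. Cs mRNA was at 54% against 55% in set 2 at syd, and at 57% against 56% in set 1 at SRm160. The SD between the nascent sets at the 43 single sites with mRNA levels was 6.29 points.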

How the results depend on the processing

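Of 45 alternative values for 9 results, 26 stayed within their limits and 19 moved. Shares and levels cannot change sign, and the single minus other difference has a main value of 0 and took both signs. The median nascent level of single sites was 24.5% in exons, 18.5% in introns and 26.5% at sites seen in all 4 control male libraries. That of other sites was 28% in exons, 18% in introns and 22.5% as a median per entry. The single minus other difference ran from 0 to 1.5 points with a set left out. It was -3.5 points in exons, -4.5 points at sites seen in all 4 libraries, -1.5 points per entry, -8.5 points at sites with an mRNA level and 2 points at exonic sites without one. The share with an mRNA level was 33.6% in exons. The share of single sites listed at 0 in ADAR0 was 83.5%, against 88.3% at 2% or less and 75.6% listed at 0 among sites seen in all 4 libraries. The median yw minus FM7a difference was 3 points without zeros and 3.5 points at sites seen in all 4. The share seen in all 4 was 51.6% in exons and 20% in introns. The choices by mRNA level were added after the data were seen. No paired analysis was possible because the deposited levels are pooled over libraries. Unknown RNA depth limits every level.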
